A study of Mus musculus with 4 samples.

Results

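The anti-apoptotic BCL2 family was examined in T8 leukemia cells with and without IRF4 re-expression. Its members were taken by name, and all 7 listed genes, *Bcl2*, *Bcl2l1*, *Bcl2l2*, *Mcl1*, *Bcl2a1a*, *Bcl2a1b* and *Bcl2a1d*, were found among the 55359 gene identifiers of the count table. T8 is a pB-ALL cell line of genotype Irf4-/-, derived from 1 primary tumor and first grown on ST2 stromal cells with IL-7, carries a *Jak3* mutation, and stands for 1 tumor only. The control group received an empty retrovirus that expresses only the GFP reporter (EV-RV), the other group a virus that also expresses IRF4 (IRF4-RV). Total RNA was sequenced in bulk a day later, with 2 libraries per group. The paper states that the cells compared were those still viable at that time. It reports that IRF4-expressing T8 and T11 cells were gradually lost and underwent apoptosis. The levels below are therefore those of surviving cells, not of all cells transduced. Both groups carried the *Irf4* deletion and a virus. The culture and transduction protocols in the labels name T11 cells, whereas titles and tissue name T8, and the libraries were used as T8. Whether GFP+ cells were sorted before RNA extraction is not given in the sources used here. Replicates are described as biological, but nothing ties them to separate transductions, so p-values measure the spread between these libraries only.

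Proteins of this family hold mitochondria intact. They bind the BH3 helix of pro-apoptotic relatives in a groove and thereby keep BAX and BAK from opening the outer membrane, which would release cytochrome c and start the caspase cascade. BH3-only proteins are the sensors that occupy this groove under stress. In developing B cells, survival through the IL-7 receptor and STAT5 is known to run in large part over MCL1 and BCL2, whereas BCL-XL (*Bcl2l1*) is linked to the small preB stage and A1 (*Bcl2a1*) to NF-κB activity in mature B cells and myeloid cells.

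The shared groove is visible in the coding sequences. Below, 60 bases are given for each member around the most conserved part of the BH1 region, read from GENCODE M21 transcripts on GRCm38, 5′ to 3′ on the coding strand. They are shown because they make clear which members the reads of this experiment can tell apart. Capitals mark 12 bases at an in-frame match to a pattern conserved in the BH1 region. Each stretch lies within 1 coding exon.
*Bcl2*, chr1:106712428-106712487, minus strand: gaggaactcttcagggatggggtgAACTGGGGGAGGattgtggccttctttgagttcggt
*Bcl2l1*, chr2:152829550-152829609, minus strand: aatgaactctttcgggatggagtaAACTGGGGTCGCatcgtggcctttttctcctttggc
*Bcl2l2*, chr14:54884631-54884690, plus strand: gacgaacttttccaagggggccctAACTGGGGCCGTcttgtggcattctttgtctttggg
*Mcl1*, chr3:95659826-95659885, plus strand: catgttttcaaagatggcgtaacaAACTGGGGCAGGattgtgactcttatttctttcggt
*Bcl2a1a*, chr9:88957279-88957338, plus strand: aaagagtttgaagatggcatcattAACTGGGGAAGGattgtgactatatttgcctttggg
*Bcl2a1b*, chr9:89199588-89199647, plus strand: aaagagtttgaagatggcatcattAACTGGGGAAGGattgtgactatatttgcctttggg
*Bcl2a1d*, chr9:88731432-88731491, minus strand: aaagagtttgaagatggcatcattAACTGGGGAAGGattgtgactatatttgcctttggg

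Over these 60 bases *Bcl2* and *Bcl2l1* shared 43, *Bcl2* and *Bcl2l2* shared 40, and *Mcl1* was closest to the *Bcl2a1* genes with 42. The 3 *Bcl2a1* stretches were identical. Over their whole coding sequence of 516 bases these copies matched each other at 505 to 510 bases. Of all 50-base words in their transcripts, 31% for *Bcl2a1a*, 20.8% for *Bcl2a1b* and 20.5% for *Bcl2a1d* occurred in no other gene's transcripts, against 100% for *Bcl2l1* and *Mcl1*, 94.7% for *Bcl2* and 87.9% for *Bcl2l2*. *Bcl2a1b* shares 401 of its 817 exon bases with *Gm29094*, a gene on the same strand that had 0 counts in every library. *Bcl2l2* shares 594 of its 4462 exon bases with *Gm20521*, a gene on the same strand that was counted at most 1 time. *Bcl2* shares 558 of 9157 exon bases with the antisense gene *D630008O14Rik*, also counted at most 1 time. Reads on such shared bases may have been left out of these counts.

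Total counts were 31686715 and 31230223 in the EV-RV libraries, and 34771970 and 37817752 in those of IRF4-RV. *Irf4*, the transduced gene, was at 241.9 and 241.0 CPM (read counts relative to the TMM-scaled library size) in EV-RV cells, and at 2822 and 2491 CPM with IRF4-RV, higher in both libraries as labelled. Reads were thus assigned to *Irf4* also in EV-RV cells of the Irf4-/- line, and vector and endogenous transcripts are not separated in these counts. B-cell progenitor markers were present in all libraries, with *Cd79a* and *Cd79b* each at 9245 counts or more, while *Rag1* had 0 or 1 count. Of the 8 progenitor markers tested, 3 were lower with IRF4-RV, against 13.7% of all genes tested. These were the surrogate light chain genes *Vpreb1* (log2 fold change -1.49) and *Igll1* (-1.30) and the receptor gene *Il7r* (-0.29). Their part in the results for the family was not tested. Markers of myeloid cells summed to 0.856 to 1.43 CPM over 10 genes and those of T and NK cells to 1.18 to 1.59 CPM over 7 genes. Markers of stromal cells were less even. Their sum over 6 genes was 47.5 and 89.4 CPM in EV-RV cells, against 47.0 and 221.1 CPM in IRF4-RV cells, so that replicate 2 of IRF4-RV stood apart. The 6 stromal markers did not pass the test between groups, with edgeR adjusted p from 0.222 to 0.521. Their part in the results below was not tested, and each member's change is therefore also given without that library and within replicate 1, where the stromal sums of both groups were alike.

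Transcript levels of the family differed widely in EV-RV cells. Protein of these genes was not measured here, so all levels, shares and ratios given are those of RNA. Per kilobase of exon, *Mcl1* stood at 51.9 ± 0.200 CPM per kb (SD, n = 2), *Bcl2l1* at 8.85 ± 0.558, *Bcl2* at 2.76 ± 0.287 and *Bcl2l2* at 1.10 ± 0.00989 CPM per kb. The ranges of neighbors in this order did not overlap in either group. Among 14578 genes tested and annotated, these levels corresponded to percentile 90.9 for *Mcl1*, 64.7 for *Bcl2l1*, 40.0 for *Bcl2* and 25.1 for *Bcl2l2*. The order was the same with IRF4-RV, at 61.7, 8.58, 2.00 and 1.47 CPM per kb, although *Bcl2* and *Bcl2l2* lay closer together there. The *Bcl2a1* genes were at the limit of detection in both groups.

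Upon IRF4-RV transduction, 2 members rose, 1 fell and 1 did not pass the test. Genes were called at an FDR of 0.1 with edgeR, fitted over 14637 genes with sufficient counts. Of the 4 family members tested, *Mcl1* and *Bcl2l2* were higher and *Bcl2* was lower with IRF4-RV, *Bcl2l1* was not called, and the 3 *Bcl2a1* genes were too low to be tested. In total, 29.7% of all genes tested were called, 16% higher and 13.7% lower. Groups did not overlap for 3 of the 4 members, and for 61.3% of all genes. The median log2 fold change was 0.10 over the 4 members and 0.01 over all genes. The largest change of a member was that of *Bcl2*, 1.38-fold. In a bulk sample, a change in RNA per cell and a change in the make-up of the cells cannot be told apart.

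**Figure D1:**
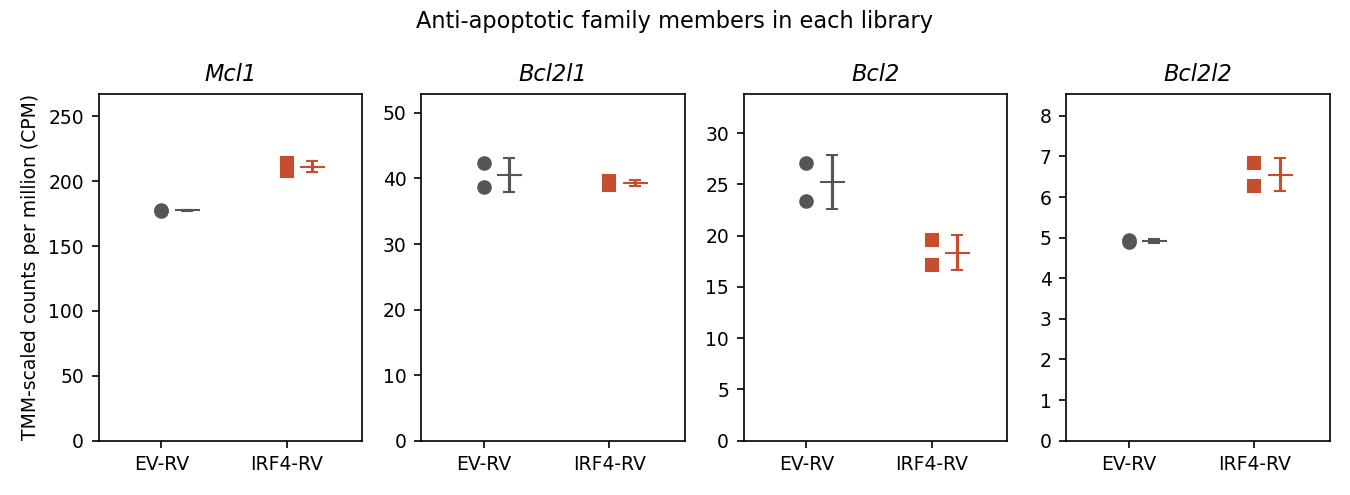
Levels in CPM (TMM-scaled) of the 4 members that were tested, by library, with circles for EV-RV, squares for IRF4-RV and bars for mean ± SD (n = 2 each). *Mcl1* and *Bcl2l2* lie higher and *Bcl2* lower in both IRF4-RV libraries, while the *Bcl2l1* groups overlap.

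*Mcl1*, which encodes a short-lived protein that sequesters BIM, NOXA and BAK, had the highest transcript level of the members. It lies on the plus strand of chromosome 3 from 95658788 to 95663176 (GRCm38). EV-RV libraries held 5935 and 5578 reads of *Mcl1* and IRF4-RV libraries 7249 and 7573 reads, which gave 177.9 and 176.9 against 214.0 and 208.0 CPM. Both IRF4-RV libraries thus lay above both EV-RV libraries, and replicates lay close together. Its level was 1.19-fold higher (95% interval 1.06 to 1.33), or by 0.25 on the log2 scale (edgeR adjusted p = 0.0379, standard error 0.0699). Within replicate 1 the log2 ratio was 0.27 and within replicate 2 it was 0.23. The call was lost without replicate 1 of IRF4-RV, at 0.21 (edgeR adjusted p = 0.305), and without replicate 2 of IRF4-RV, at 0.28 (edgeR adjusted p = 0.172), fits in which the lone library is assumed to vary like the others. Scaled by library size alone, its log2 fold change was 0.16 (edgeR adjusted p = 0.131).

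*Bcl2*, which encodes the founding member, a protein of mitochondria and the ER that binds BIM, fell. It lies on the minus strand of chromosome 1 from 106538178 to 106714274. EV-RV libraries held 904 and 737 reads of *Bcl2* and IRF4-RV libraries 662 and 624 reads, or 27.1 and 23.4 against 19.5 and 17.1 CPM. The groups did not overlap, but the lower EV-RV library and the higher IRF4-RV library lay near each other. Its level was 1.38-fold lower with IRF4-RV, and the log2 fold change was -0.46 (95% interval -0.73 to -0.19, standard error 0.117, edgeR adjusted p = 0.0264). Within replicates 1 and 2 the log2 ratios were -0.47 and -0.45. Leaving out replicate 1 of EV-RV gave -0.36 (edgeR adjusted p = 0.131), which no longer passed, and leaving out replicate 2 of IRF4-RV gave -0.36 (edgeR adjusted p = 0.0865).

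*Bcl2l1* encodes BCL-XL, which like BCL2 binds most BH3-only proteins and BAX, and from which a short pro-apoptotic splice form is also made. It lies on the minus strand of chromosome 2 from 152780668 to 152831728. EV-RV libraries held 1293 and 1336 reads and IRF4-RV libraries 1344 and 1419 reads, or 38.8 and 42.4 against 39.7 and 39.0 CPM. The IRF4-RV libraries fell between the EV-RV libraries. The log2 fold change was -0.04 (edgeR adjusted p = 0.773, standard error 0.0893) with a 95% interval from -0.25 to 0.16, so that a change to between 0.84-fold and 1.12-fold is compatible with these libraries. Within replicate 1 the log2 ratio of *Bcl2l1* was 0.03, and without replicate 2 of IRF4-RV its log2 fold change was -0.03 (edgeR adjusted p = 0.937). Counts per gene do not tell the long from the short form.

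*Bcl2l2*, which encodes BCL-W, had the lowest level of the members tested. It lies on the plus strand of chromosome 14 from 54883377 to 54888234. EV-RV libraries held only 163 and 156 reads and IRF4-RV libraries 212 and 249 reads, or 4.89 and 4.95 against 6.26 and 6.84 CPM. The groups were separate. The log2 fold change was 0.41 (edgeR adjusted p = 0.0839, standard error 0.147), a 1.33-fold higher level with a 95% interval from 1.05 to 1.69. This call was near the threshold and did not hold in DESeq2 (adjusted p = 0.302), with library size only (0.161) or with any of the 4 libraries left out, where edgeR adjusted p ranged from 0.151 to 0.299 and log2 fold changes from 0.35 to 0.46. Without replicate 2 of IRF4-RV the log2 fold change of *Bcl2l2* was 0.35, and within replicate 1 its log2 ratio was 0.36.

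*Bcl2a1a*, *Bcl2a1b* and *Bcl2a1d* encode the A1 proteins, which bind BIM and BID, and lie on chromosome 9 at 88956900 to 88962419, 89199209 to 89207827 and 88723285 to 88731914. *Bcl2a1a* had 0 counts in all 4 libraries, *Bcl2a1b* had 2 counts in replicate 2 of IRF4-RV, and *Bcl2a1d* had 1 count in replicate 1 of EV-RV. Together with *Bcl2a1c*, a further copy at 0 counts throughout, they summed to 1 and 0 counts in EV-RV cells, against 0 and 2 in IRF4-RV cells, and even as 1 summed gene they did not reach the minimum for testing. A count of 0 allows up to 3 counts, which for reads of 50 bases and the unique part of each copy corresponds to between 0.345 and 0.595 CPM per kb, below the level of *Bcl2l2*. These limits apply where a copy had 0 counts, not to *Bcl2a1b* in replicate 2 of IRF4-RV or *Bcl2a1d* in replicate 1 of EV-RV. They cover counting error only, and the read length is not given in the sources used here. Reads from the identical parts may not have been counted. No fold is given for these genes.

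**Figure D2:**
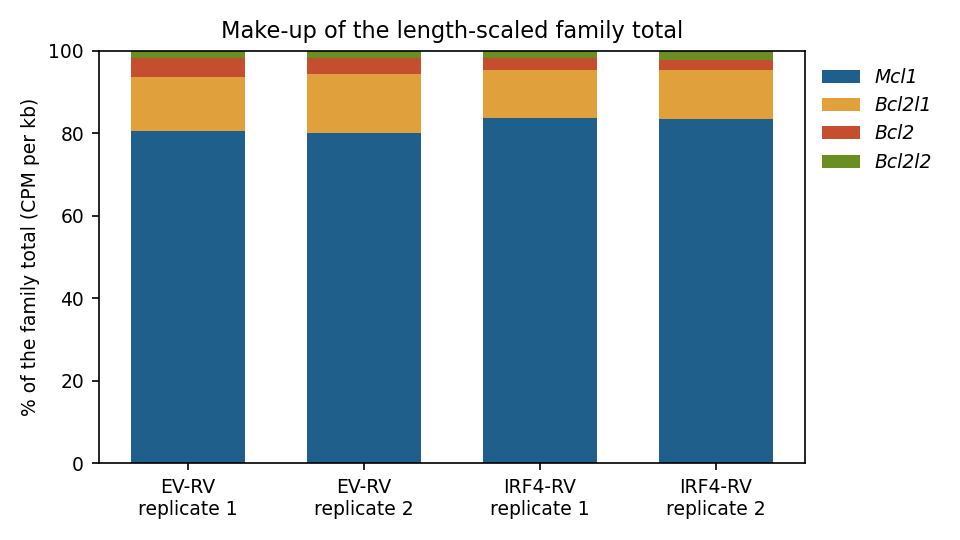
Share of each member in the summed family level (CPM per kb of exon, in percent) for the 4 libraries, with *Bcl2a1* genes left out because they hold less than 0.1% each. *Mcl1* takes over 80% in every library, and the *Bcl2* segment is thinner in both IRF4-RV libraries.

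Because members moved in opposite directions, the make-up of the family was compared within libraries. The shares need no scaling between libraries, and with 2 against 2 libraries they are given without a test. *Mcl1* held 80.6% and 80.0% of the summed level per kilobase in EV-RV cells, against 83.7% and 83.6% in IRF4-RV cells. *Bcl2* held 4.58% and 3.95% in EV-RV cells, against 2.85% and 2.57% in IRF4-RV cells, and *Bcl2l1* held 13.1% and 14.3% against 11.6% and 11.7%. Neither gene's groups overlapped, and in CPM the same held for 61.3% of all genes tested. A share depends on all members, and *Bcl2l1* itself was not called (log2 fold change -0.04, edgeR adjusted p = 0.773). The share of *Bcl2l2* was 1.70% and 1.71% in EV-RV cells, against 1.88% and 2.10% in IRF4-RV cells. The summed level of the family, which unlike the shares depends on the TMM scaling between libraries, was 64.6 and 64.7 CPM per kb in EV-RV cells, against 74.8 and 72.8 CPM per kb in IRF4-RV cells. These shares rest on the exon length used for each gene. With the longest transcript in place of all exons, the mean share of *Mcl1* was 71.6% with EV-RV and 75.9% with IRF4-RV, and that of *Bcl2l1* was 21.8% and 18.8%.

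**Figure D3:**
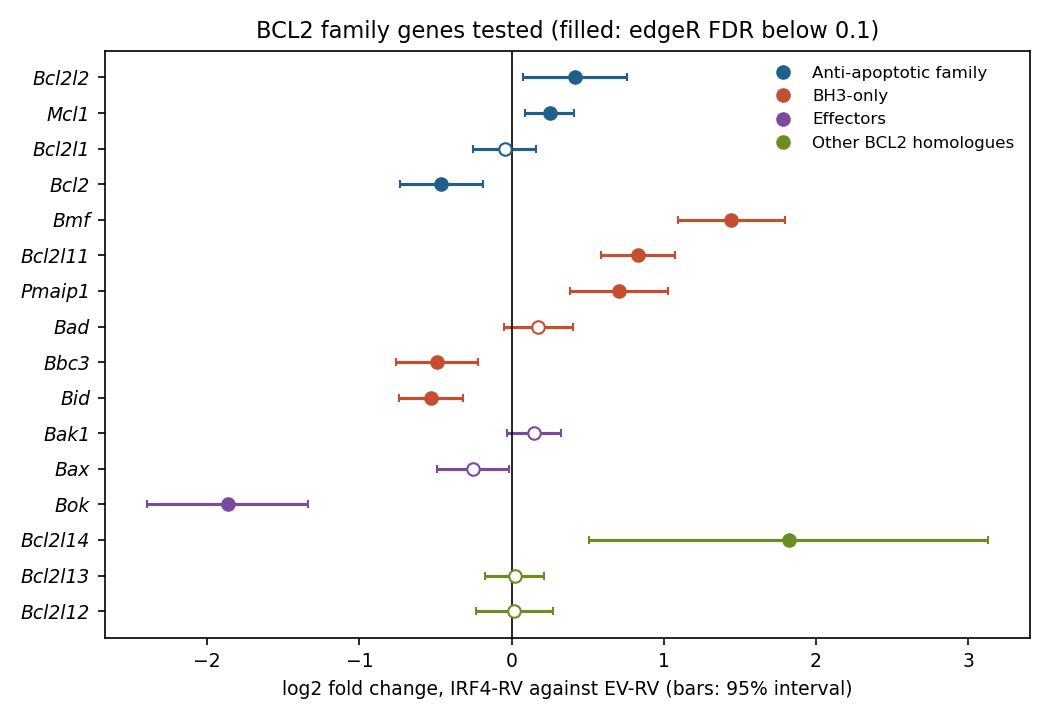
Log2 fold changes between IRF4-RV and EV-RV with 95% intervals for the BCL2 family genes tested, grouped by role, filled where the edgeR FDR was below 0.1. Changes of the anti-apoptotic members stay between -0.46 and 0.41, whereas BH3-only genes and effectors range from -1.87 for *Bok* to 1.44 for *Bmf*. The highest value is that of *Bcl2l14*, another homologue with few counts, at 1.82 with a wide interval from 0.51 to 3.13.

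The ligands of these proteins were compared with a list of 8 BH3-only genes. Of 6 tested, 3 rose, 2 fell and 1 did not pass, against 16% higher and 13.7% lower among all genes tested. *Bcl2l11*, encoding BIM, which binds every anti-apoptotic member, went from 38.0 and 43.7 to 77.3 and 68.1 CPM, a log2 difference of 0.83 (edgeR adjusted p = 0.00123). *Bmf*, which is released from the cytoskeleton, rose by 1.44, from 5.87 and 4.69 to 15.4 and 13.5 CPM. *Pmaip1*, encoding NOXA, a selective partner of MCL1, rose by 0.71. *Bid*, which links death receptors to mitochondria, fell by 0.53, and *Bbc3*, the p53 target PUMA, fell by 0.49 on the log2 scale. *Bad*, which prefers BCL2 and BCL-XL, changed by 0.18 (edgeR adjusted p = 0.25). *Bik* and *Hrk* had at most 3 counts per library. The median of the 6 genes was 0.44, against 0.01 over all genes.

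Of the 3 effectors, only *Bok* was called in this fit, a share near the 29.7% among all genes tested. *Bok* fell by 1.87, from 11.7 and 14.2 to 2.66 and 4.42 CPM. *Bax* was at 67.9 and 79.7 against 58.7 and 64.99 CPM (log2 fold change -0.25, edgeR adjusted p = 0.123) and *Bak1* at 100.02 and 105.1 against 110.8 and 116.6 CPM (log2 fold change 0.15, edgeR adjusted p = 0.213). The number of effectors called was 2 with library size only and without replicate 1 of EV-RV. Among 6 further BCL2 homologues, 3 were tested. *Bcl2l14* was higher with 17 and 26 counts against 4 and 7 (edgeR adjusted p = 0.052), a call lost in DESeq2 and without either EV-RV library or replicate 2 of IRF4-RV. *Bcl2l12* and *Bcl2l13* had log2 fold changes of 0.02 each.

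**Figure D4:**
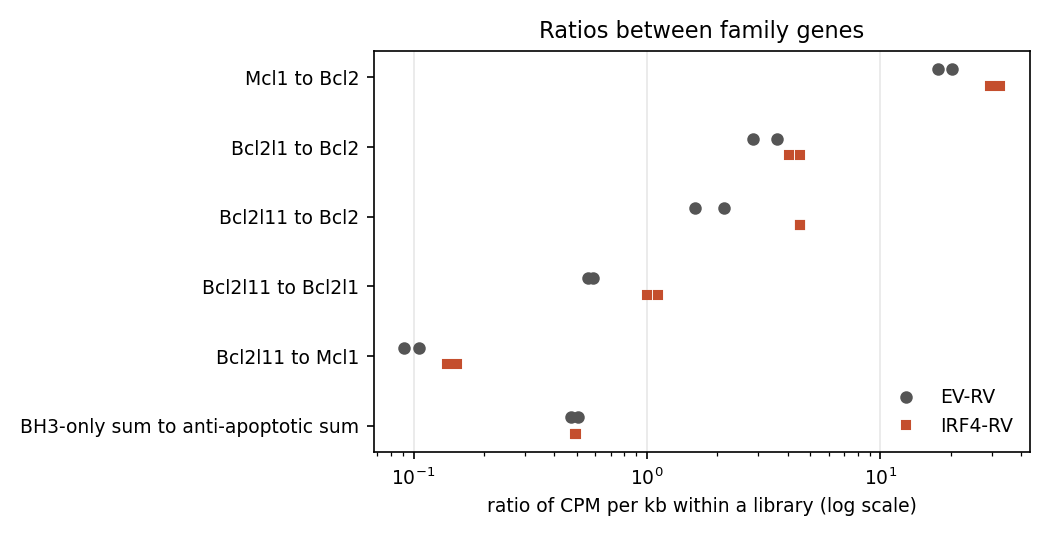
Ratios of levels per kilobase within each library on a log scale, with circles for EV-RV and squares for IRF4-RV. The ratios of *Mcl1*, *Bcl2l1* and *Bcl2l11* to *Bcl2* are higher in both IRF4-RV libraries, while the ratio of all BH3-only to all anti-apoptotic transcripts overlaps between groups.

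Ratios between members and their partners followed from these values and were computed per kilobase within libraries, without a test. *Mcl1* exceeded *Bcl2* 17.6- and 20.3-fold in EV-RV cells, against 29.3- and 32.5-fold in IRF4-RV cells. *Bcl2l11* was at 1.598 and 2.13 times the level of *Bcl2* in EV-RV cells, and at 4.51 and 4.53 times with IRF4-RV. Relative to *Bcl2l1* it was at 0.560 and 0.589 and then at 1.11 and 0.997, and relative to *Mcl1* at 0.0909 and 0.105 and then at 0.154 and 0.139. For each of these ratios the groups were apart, as were the CPM levels of 61.3% of all genes tested. The ratio of *Pmaip1* to *Mcl1* was 0.059 and 0.0745 in EV-RV cells, against 0.0942 and 0.0887 in IRF4-RV cells. In contrast, the sum of all 8 BH3-only genes relative to the sum of all 7 anti-apoptotic genes was 0.473 and 0.509 in EV-RV cells, against 0.497 and 0.491 in IRF4-RV cells, and these overlapped. The sum of the 3 effectors relative to the same sum was 1.41 and 1.58, against 1.13 and 1.26, without overlap. The ratio of *Bcl2* to *Bax* overlapped, at 0.0687 and 0.0505 against 0.0573 and 0.0454.

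Genes around the family were read from lists, and their counts stand against the 29.7% called among all genes tested. Among 7 genes for MCL1 turnover, 2 were higher and 5 were not called, a share near that of all genes. *Btrc*, encoding a substrate adaptor of an SCF ubiquitin ligase, rose by 0.94, from 1687 and 1502 to 3212 and 3385 counts, and *March5*, an outer-membrane ubiquitin ligase, rose by 0.42. *Huwe1* and *Usp9x*, a ligase and a deubiquitinase of MCL1, had log2 fold changes of -0.10 and 0.13 and did not pass. The median of this list was 0.04. Of 12 membrane partners, 4 rose and 4 fell. *Tmbim6*, an ER membrane protein that limits calcium release, rose by 0.73, *Itpr1* and *Itpr2*, IP3 receptors bound by BCL2, rose by 0.45 and 0.81, and *Itpr3* fell by 0.52. *Vdac1* and *Vdac2*, outer-membrane channels of which the latter binds BAK, fell by 0.22 and 0.25. *Bnip3l* rose by 0.31 and its relative *Bnip3* fell by 0.29, both BH3-like mitophagy receptors. In place of 8 calls, 3 were made without replicate 2 of EV-RV, 3 without replicate 1 of IRF4-RV, 5 without replicate 2 of IRF4-RV and 6 without replicate 1 of EV-RV.

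Downstream of mitochondria, genes of the apoptosome and caspase list moved in both directions. *Casp6* rose by 0.51, *Casp9*, the initiator caspase of the apoptosome, by 0.38 and *Apaf1*, its scaffold, by 0.34. *Diablo*, an antagonist of IAPs, rose by 0.58. *Htra2*, a mitochondrial protease, fell by 0.93 and *Cycs*, cytochrome c, by 0.47 on the log2 scale. Of 5 IAPs, which inhibit caspases or their activation, 3 rose, *Birc3* by 0.78, *Xiap* by 0.51 and *Birc2* by 0.45. *Birc5* and *Birc6* had 0.05 and 0.04 and did not pass. The median of the IAPs was 0.45.

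Regulators upstream of the family were counted in the same way. In the list of IL-7 receptor and STAT genes, 2 of 7 rose and 1 fell. *Stat3* rose by 0.44 and *Il2rg*, the common γ-chain, by 0.25, while *Il7r* fell by 0.29. *Stat5a* and *Stat5b*, which transmit the IL-7 signal, had log2 fold changes of -0.11 and 0.07 and did not pass, nor did *Jak1* at 0.02 and *Jak3* at 0.18. With replicate 1 of EV-RV, replicate 2 of EV-RV or replicate 2 of IRF4-RV left out, 1 gene of this list was called. Of 6 NF-κB genes, 4 rose, *Nfkb2* by 1.11, *Relb* by 0.86, *Nfkbia* by 0.73 and *Rela* by 0.24, and *Nfkb1* and *Rel* did not pass at -0.05 and 0.25. *Bcl2a1* transcripts, known targets of NF-κB, stayed at the limit of detection in the same libraries.

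The promoters of all 7 members were read from RefSeq windows on GRCm38.p6, 250 bases before to 50 after each annotated start, with 3 windows for *Bcl2l1* and 1 for each other member. Both strands were searched for the core of the interferon-stimulated response element, the ETS-IRF composite element, the STAT motif TTCNNNGAA, the NF-κB consensus and the IRF repeat GAAAGAAA. Among all 32851 windows of this length, these occurred in 3.44%, 2.72%, 8.3%, 4.51% and 3.66%. The first 3 motifs were not found in the windows of any member. The GAAAGAAA repeat was found in *Bcl2*, on the opposite strand at positions -136 to -129 from the start. It was also found in 1 window of *Bcl2l1*, as overlapping matches on the coding strand at positions -71 to -60. *Bcl2* fell and *Bcl2l1* was not called, and a part of the repeat in this was not tested. The matches are shown in capitals, on the strand of the gene.
*Bcl2*, chr1:106714411-106714434, minus strand: aggagggcTTTCTTTCttcttttt
*Bcl2l1*, first match, chr2:152830773-152830796, minus strand: cttaaataGAAAGAAAgaaaggag
*Bcl2l1*, second match, chr2:152830769-152830792, minus strand: aatagaaaGAAAGAAAggaggggt
The same *Bcl2l1* window held 1 match to the NF-κB consensus, at positions -242 to -233. The *Bcl2* window was richest in G and C, at 76%, against 65.7% for *Mcl1*, 65.3% for *Bcl2l2* and 44.3% to 46.7% for the *Bcl2a1* genes. A match describes letters only, and binding was not measured here.

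The genes most like each member across the 4 libraries were sought among 11735 genes with a mean of at least 50 counts, by the root-mean-square difference of centered log2 CPM. With only 4 libraries, many genes share a pattern. Closest to *Bcl2* were *Vcan* and *Rbm19* (difference 0.0124 and 0.0128), to *Mcl1* *Cdc42ep4* and *Cep76* (0.00268 and 0.00446), to *Bcl2l1* *St3gal3* and *Gm10241* (0.00128 and 0.00391), and to *Bcl2l2* *Ift46* and *Hmox2* (0.0143 and 0.0155).

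**Figure D5:**
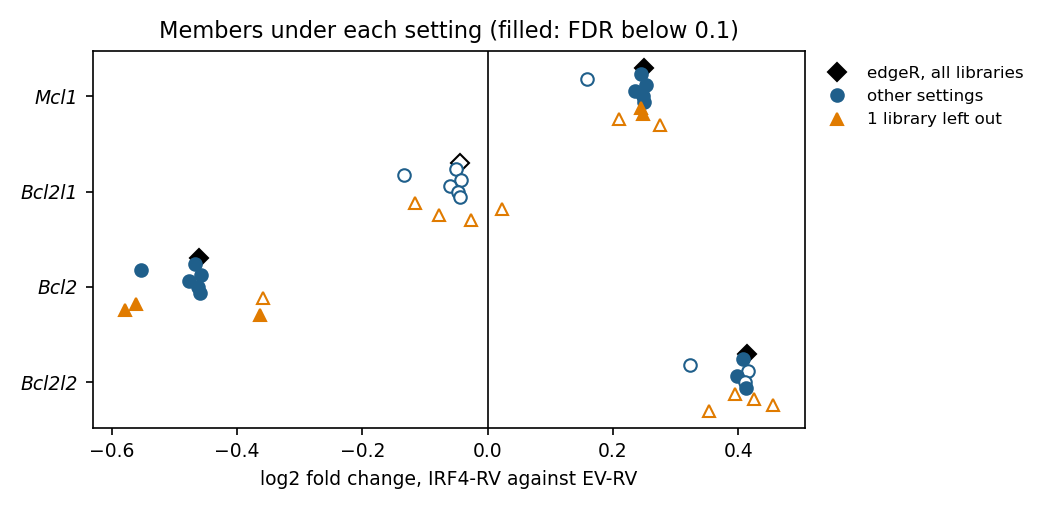
Log2 fold changes of the 4 members tested under each setting, with a diamond for edgeR with all libraries, circles for other settings and triangles for 1 library left out, filled where the FDR was below 0.1. *Bcl2* stays below 0 and *Mcl1* and *Bcl2l2* above 0 in all 10 alternatives, with open symbols for calls that were lost.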

How the data were processed

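T8 libraries (2 with EV-RV and 2 with IRF4-RV) were grouped by sample titles. According to the methods and the labels, the authors used STAR (version 2.4.0j) for alignment against GRCm38 and featureCounts for counting per gene. The deposited counts are whole numbers without normalization. How strand and multi-mapping reads were handled is not given in the sources used here. Of 55359 identifiers, 52083 matched GENCODE M21, which gave symbols, exon lengths and coordinates.

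Members and lists were chosen with earlier results of these data known. With edgeR 4.0.16 in R 4.3.3, genes kept by filterByExpr were tested (TMM factors, quasi-likelihood F test, no covariates) at a Benjamini-Hochberg FDR of 0.1, the cutoff of the study. CPM use TMM-scaled library sizes. Levels between genes were compared per kilobase of merged exons. All members were named, genes of each list were named where called, and uncalled list genes were named after their values were seen. The 2 genes nearest to each member were taken by the smallest difference in pattern. The fit was also run on simulated counts. Far fewer genes were changed there than were called in the data, so scaling under broad change was not tested. Alternatives were DESeq2 1.42.0, other scalings and filters, an FDR of 0.05, a replicate block, another gene length and leaving out each library. The sequences are those of GENCODE M21 transcripts and RefSeq promoter windows, and protein sequences were not used here. Some genes of the lists are not reported here.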

Additional observations from a re-analysis of the deposited data

How the results depend on the processing

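The directions of *Mcl1*, *Bcl2* and *Bcl2l2* held in all 10 alternatives run, while calls did not. *Bcl2l1* turned to 0.023 without replicate 2 of EV-RV. With library size only, 1 member was called in place of 3, *Mcl1* at 0.16 and *Bcl2l2* at 0.32 no longer passed, 2 effectors were called, and 37.8% of all genes called were higher, against 53.8%. *Bcl2l2* also did not pass with no filter beyond 1 count (0.42) or in DESeq2 (0.41). With 1 library left out, 1 to 2 members were called, and log2 fold changes ranged from -0.58 to -0.36 for *Bcl2*, -0.12 to 0.02 for *Bcl2l1*, 0.35 to 0.46 for *Bcl2l2* and 0.21 to 0.28 for *Mcl1*. Calls then numbered 1 to 2 among effectors, 0 to 1 among other homologues, 3 to 6 among membrane partners and 1 to 2 among IL-7 receptor and STAT genes. Effectors called were 2 with no filter and with at least 1 CPM in 2 libraries, and 3 with the replicate block. With at least 1 CPM in 2 libraries, *Bcl2l14*, at 0.12 to 0.71 CPM, was not tested, and no other BCL2 homologue was called. None was called in DESeq2 or at an FDR of 0.05. At that FDR, membrane partners held 4 calls and IL-7 receptor and STAT genes 1. With the longest transcript as length, shares with EV-RV and IRF4-RV were 4.84% and 3.13% for *Bcl2*, 21.8% and 18.8% for *Bcl2l1* and 71.6% and 75.9% for *Mcl1*, and 1.78% with EV-RV for *Bcl2l2*. The cause of these changes was not tested, except that fewer libraries leave less to estimate the spread from.

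Same-numbered libraries deviated together to some degree, with r = 0.28 across all genes tested and 0.31 across those with a mean of at least 50 counts. *Bcl2* was lower in replicate 2 than in replicate 1 of both groups, and leaving out a library unbalances the replicate numbers. The part of this in calls that were lost was not tested. The labels do not say that a number marks a shared batch. The main fit therefore did not use the numbers as pairs. Log2 ratios within a replicate number, given for the members, are descriptions only. With the replicate block, 6394 genes were called against 4349, and all 3 member calls stayed, with edgeR adjusted p = 2.89e-05 for *Bcl2*, 0.000101 for *Mcl1* and 0.0416 for *Bcl2l2*, and 0.729 for *Bcl2l1*. At these depths 3 counts correspond to 0.0793 to 0.0961 CPM. The summed *Bcl2a1* gene gave no value to test.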
